A study of Mus musculus with 6 samples.

Results

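A set of 9 genes of lymphocyte trafficking and quiescence was followed in lung group 2 innate lymphoid cells (ILC2s) with and without a floxed allele of Piezo1. They are the transcription factor genes Klf2, Klf3, Klf13, Foxo1 and Foxp1, the receptor genes S1pr1, S1pr4 and Ccr7, and the adhesion molecule gene Pecam1. They were chosen by name from the 18057 genes of the table, and all 9 were among the 14149 genes tested. RNA came from ILC2s sorted from lungs of mice given 3 intranasal doses of 1 µg IL-33, then cultured for 24 h in 10 ng/mL of IL-2 and the same concentration of IL-7. The Piezo1 KO group carried the Il7r-Cre driver with floxed Piezo1 (3 libraries). The WT group carried the Il7r-Cre driver alone according to its genotype label, although its titles read WT (3 libraries). The driver acts in cells that express Il7r, so other lymphoid cells of the KO mice could also have lost Piezo1. Age, sex and strain of the mice, the number of animals behind a library and the copy number of the driver were not stated in the sources used here. P-values therefore rest on the spread among libraries alone, and that spread may be technical.

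KLF2 is a zinc-finger transcription factor that keeps resting T cells quiescent and switches on S1pr1, the receptor through which lymphocytes sense sphingosine 1-phosphate and leave tissue for lymph and blood. FOXO1 stands upstream of it in T cells and also drives Il7r and Ccr7, while PI3K and AKT signalling shut FOXO1 out of the nucleus. FOXP1, another forkhead protein, binds shared sites and opposes FOXO1 at Il7r in T cells. In endothelial cells fluid shear stress raises Klf2, and PIEZO1 is one of the sensors of such force.

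KLF proteins bind CACCC boxes, and the promoters of Klf2, Klf3 and Foxp1 are shown because Klf2 and Klf3 are the KLF members with the lowest levels here and Foxp1 is the member that fell. The window runs from 250 bases before to 50 bases after a RefSeq start site (build GRCm38.p6), and 6 of the 9 genes, with 8 start sites in all, matched that table. Capitals mark CACCC or its reverse complement GGGTG. The Klf2 window is chr8:72318812-72319111 (plus strand), the Klf3 window is chr5:64803271-64803570 (plus strand), and the 3 Foxp1 windows, in the order of starts 1, 2 and 3, are chr6:99520944-99521243, chr6:99266466-99266765 and chr6:99028249-99028548 (all minus strand).
Klf2: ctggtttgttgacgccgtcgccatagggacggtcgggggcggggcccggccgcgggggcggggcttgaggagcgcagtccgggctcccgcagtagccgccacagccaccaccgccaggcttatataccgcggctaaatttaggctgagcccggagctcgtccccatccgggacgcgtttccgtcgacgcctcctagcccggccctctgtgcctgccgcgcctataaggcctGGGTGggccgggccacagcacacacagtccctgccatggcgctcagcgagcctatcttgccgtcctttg
Klf3: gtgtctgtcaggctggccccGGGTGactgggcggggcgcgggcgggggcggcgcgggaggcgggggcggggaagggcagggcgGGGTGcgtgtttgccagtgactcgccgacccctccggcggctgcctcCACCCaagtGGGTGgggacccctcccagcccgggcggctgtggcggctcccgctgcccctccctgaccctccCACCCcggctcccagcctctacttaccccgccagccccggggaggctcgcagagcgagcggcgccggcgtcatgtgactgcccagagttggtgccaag
Foxp1, start 1: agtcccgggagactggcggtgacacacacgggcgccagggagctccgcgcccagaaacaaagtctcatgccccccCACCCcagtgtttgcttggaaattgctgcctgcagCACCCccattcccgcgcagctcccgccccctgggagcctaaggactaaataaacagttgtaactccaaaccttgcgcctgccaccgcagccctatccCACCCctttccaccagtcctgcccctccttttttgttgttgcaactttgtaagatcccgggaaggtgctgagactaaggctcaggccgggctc
Foxp1, start 2: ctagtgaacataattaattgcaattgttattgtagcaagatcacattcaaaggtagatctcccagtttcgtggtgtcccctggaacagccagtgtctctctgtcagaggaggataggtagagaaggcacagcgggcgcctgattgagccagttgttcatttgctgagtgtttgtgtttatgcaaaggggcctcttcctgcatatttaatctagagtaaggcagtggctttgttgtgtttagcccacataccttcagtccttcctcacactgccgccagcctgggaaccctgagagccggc
Foxp1, start 3: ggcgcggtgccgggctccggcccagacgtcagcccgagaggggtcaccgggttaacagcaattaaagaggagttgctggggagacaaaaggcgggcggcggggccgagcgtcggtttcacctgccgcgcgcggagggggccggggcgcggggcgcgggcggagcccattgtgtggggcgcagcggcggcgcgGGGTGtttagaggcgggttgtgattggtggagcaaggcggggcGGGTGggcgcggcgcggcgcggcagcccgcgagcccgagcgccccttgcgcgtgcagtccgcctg
The Klf2 window held 1 match, the Klf3 window 5, and the 3 Foxp1 windows 3, 0 and 2. At least 1 match was present in 6 of the 8 windows of these genes and in 57.5% of all 32851 promoters of the same length, at least 3 matches in 9.35% of all promoters, and at least 5 in 1.02%. The Klf3 window was 76.7% G and C. The forkhead motif TGTTTAC, searched on both strands, occurred in 0 of the 8 windows and in 3.65% of all promoters. A match is a string of letters, not a measured binding site. Since counts were summed per gene, the RNA of the 3 Foxp1 starts was not told apart.

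Depth was 23549849 to 29733378 estimated counts in Piezo1 KO libraries and 13059046 to 33459904 in WT libraries. Piezo1 itself was at 150, 109 and 122 CPM (the count of a gene relative to the TMM-scaled size of its library) in Piezo1 KO replicates 1, 2 and 3, against 247, 278 and 160 CPM in WT replicates 1, 2 and 3, with no overlap and a log2 fold change of −0.85 ± 0.21 (SE). That difference did not pass the threshold of 0.05 (adjusted p = 0.112; edgeR's quasi-likelihood test, adjusted by Benjamini-Hochberg across the genes tested). It passed without WT replicate 3 (log2 fold change −1.05, adjusted p = 0.0163), in DESeq2 (0.00193) and in limma-voom (0.0157). Which exons the floxed allele removes was not stated, and RNA of a recombined allele can still be counted over the rest of the gene. Exons of Ctu2 on the opposite strand cover 24.6% of the annotated exon bases of Piezo1, and whether counting used strand was not stated in the sources used here. The 15 ILC2 markers analysed summed to 12190 to 13100 CPM in Piezo1 KO and 10880 to 11540 CPM in WT libraries, mostly Il5 and Il2ra. Without overlap, 5 of them were higher and 4 lower in Piezo1 KO, against 10.1% higher and 10.5% lower among all genes tested. Gata3, the defining factor of ILC2s, was among the lower ones. It was at 703 to 789 CPM in Piezo1 KO and 954 to 1035 CPM in WT libraries (adjusted p = 0.0612, edgeR). WT replicate 2 stood apart on the first principal component of all genes (49.0% of the variance) and WT replicate 3 on the second (26.4%).

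Of the 9 genes, Pecam1 rose, Foxp1 fell and 7 did not pass, against 1.51% of all genes tested that passed in either direction (214 of 14149; 1.00% higher and 0.509% lower). The members were chosen with earlier results of these data known, so their counts are not an independent test against these shares. The log2 fold change was positive for 4 members and negative for 5, with a median of −0.14 over the members and 0.018 over all genes tested. The values of the groups did not overlap for S1pr1, Ccr7 and Pecam1, all higher in Piezo1 KO, nor for Foxp1, lower in Piezo1 KO. Such separation held for 20.6% of all genes tested, 10.1% higher and 10.5% lower. At an unadjusted p under 0.05 there were 4 members, the same 4 genes, and 13.2% of all genes.

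**Figure D1:**
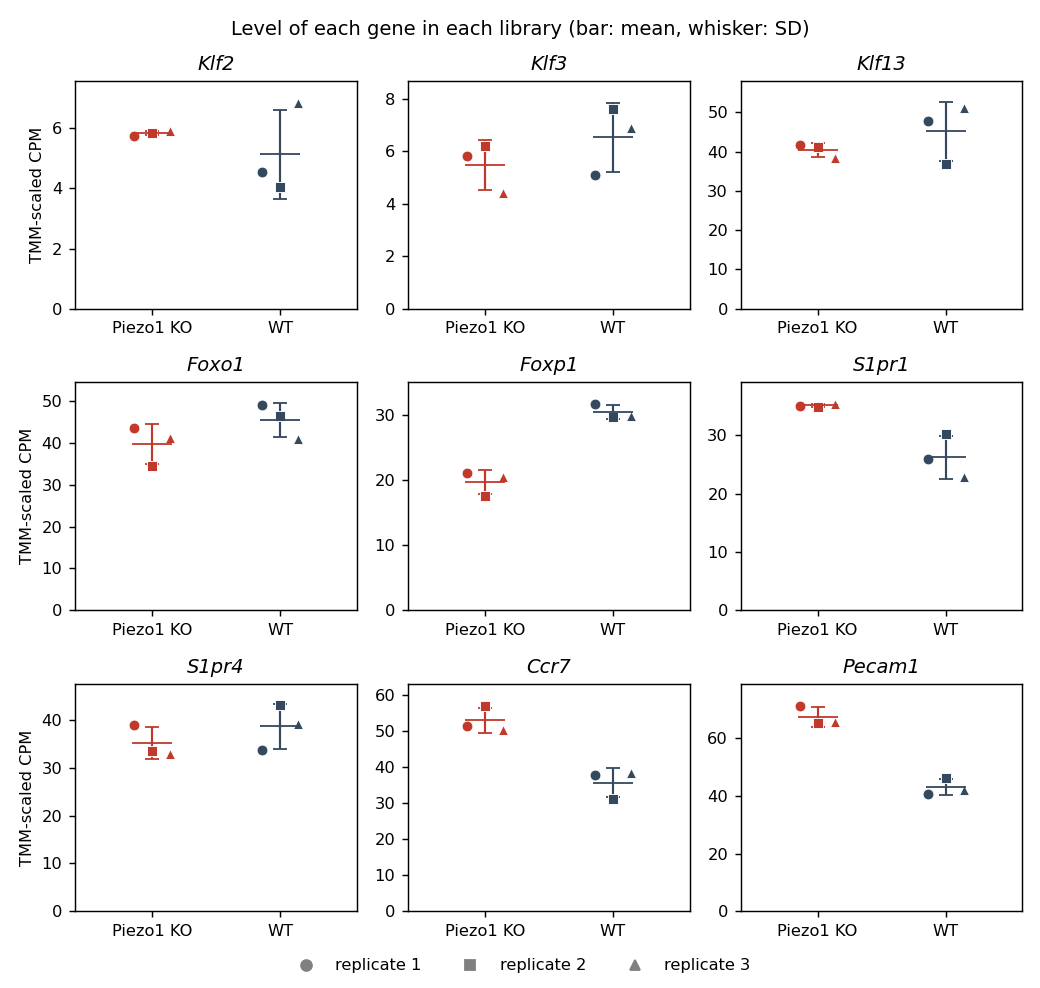
TMM-scaled CPM of each gene (vertical axis, from 0) in the 3 Piezo1 KO and 3 WT libraries, with the mean as a horizontal line and the SD as a whisker. Foxp1, S1pr1, Ccr7 and Pecam1 show no overlap between the groups, while the WT libraries of Klf2 spread from 4.03 to 6.82 CPM around Piezo1 KO libraries at 5.75 to 5.89 CPM.

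Klf2 (chromosome 8, 72319033 to 72321656, plus strand; mm10, as for the positions that follow) was a low transcript in these cells, higher than only 32.3% of the genes tested in CPM, and did not separate the genotypes. It was at 5.75, 5.84 and 5.89 CPM in Piezo1 KO replicates 1, 2 and 3, against 4.53, 4.03 and 6.82 CPM in WT replicates 1, 2 and 3, from 90 to 169 counts a library. The Piezo1 KO libraries lay close together, inside the range of the WT libraries, in which replicate 3 was the highest. The log2 fold change was 0.20 ± 0.24 (SE, adjusted p = 0.792, edgeR), with a 95% interval from 0.78-fold to 1.69-fold. It moved with single WT libraries, to 0.034 without WT replicate 2, 0.12 without WT replicate 1 and 0.45 without WT replicate 3, was 0.32 in limma-voom, and the adjusted p over 14 alternative fits lay between 0.28 and 0.966.

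Klf3 (chromosome 5, 64803388 to 64832901, plus strand), a KLF repressor that works through the CtBP corepressor and is itself activated by KLF1 in red cell precursors, was at 5.83, 6.18 and 4.40 CPM in Piezo1 KO replicates 1, 2 and 3, against 5.08, 7.62 and 6.90 CPM in WT replicates 1, 2 and 3. The groups overlapped and the log2 fold change was −0.26 ± 0.24 (SE, adjusted p = 0.712, edgeR; 95% interval 0.57-fold to 1.22-fold). Without WT replicate 1 that value was −0.41, without WT replicate 2 it was −0.14, without Piezo1 KO replicate 3 it was −0.12, and in limma-voom it was −0.10. Klf13 (chromosome 7, 63886351 to 63938915, minus strand), a KLF factor known in T cells for driving late expression of the chemokine gene Ccl5, was at 41.7, 41.1 and 38.4 CPM in Piezo1 KO replicates 1, 2 and 3, against 47.8, 36.8 and 51.0 CPM in WT replicates 1, 2 and 3. WT replicate 2 was the lowest of the 6 libraries and the other WT libraries were the highest. Its log2 fold change was −0.16 ± 0.13 (SE, adjusted p = 0.684, edgeR; 95% interval 0.72-fold to 1.11-fold), or −0.31 without WT replicate 2 and −0.065 without WT replicate 3.

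The forkhead gene Foxp1 fell. It was at 21.1, 17.6 and 20.4 CPM in Piezo1 KO replicates 1, 2 and 3, against 31.6, 29.7 and 29.9 CPM in WT replicates 1, 2 and 3. Every Piezo1 KO library lay below every WT library. The means were 19.7 ± 1.88 CPM in Piezo1 KO and 30.4 ± 1.0 CPM in WT (SD, n = 3 each), a log2 fold change of −0.63 ± 0.11 (SE, adjusted p = 0.0397, edgeR). The change stayed between −0.69 and −0.55 in 14 alternative fits. The call was lost without WT replicate 1 (adjusted p = 0.176) or WT replicate 3 (0.0522) and without Piezo1 KO replicate 1 (0.125), 2 (0.232) or 3 (0.155). Foxp1 lies on chromosome 6 from 98925338 to 99522721 (minus strand), with 31 annotated transcripts, and the exons of Gm20696 share 2.18% of its exon bases. Gm20696 was at 1.22 to 1.93 CPM in Piezo1 KO and 1.12 to 2.07 CPM in WT libraries.

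Foxo1 lies on chromosome 3 from 52268336 to 52353221 (plus strand), and the antisense gene Gm20402, at no more than 0.938 CPM in any library, shares 7.78% of its exon bases. Foxo1 was at 43.7, 34.5 and 41.3 CPM in Piezo1 KO replicates 1, 2 and 3, against 49.0, 46.6 and 41.1 CPM in WT replicates 1, 2 and 3. The groups met at Piezo1 KO replicates 1 and 3 and WT replicate 3. The log2 fold change was −0.20 ± 0.12 (SE, adjusted p = 0.559, edgeR; 95% interval 0.72-fold to 1.06-fold), and −0.10 without Piezo1 KO replicate 2. The ratio of Foxo1 to Foxp1 CPM, which does not depend on how libraries are scaled, was 2.07, 1.96 and 2.02 in Piezo1 KO replicates 1, 2 and 3, against 1.55, 1.57 and 1.37 in WT replicates 1, 2 and 3. On the log2 scale it averaged 1.01 ± 0.04 in Piezo1 KO and 0.58 ± 0.10 in WT (SD, n = 3 each), a difference of 0.43. The exact two-sided permutation test gave p = 0.1, the smallest value that 3 against 3 libraries allow. Groups without overlap always give that value. The ratio uses the same Foxp1 values as the Foxp1 call, so it is not separate support for that call.

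Il7r, which FOXO1 activates and FOXP1 restrains in T cells, was at 30.5, 33.7 and 34.3 CPM in Piezo1 KO replicates 1, 2 and 3, against 67.3, 74.8 and 58.3 CPM in WT replicates 1, 2 and 3. Il7r fell, with a log2 fold change of −1.03 ± 0.12 (SE, adjusted p = 0.00722, edgeR). The call was lost without Piezo1 KO replicate 1 (adjusted p = 0.0526) or 2 (0.063) and without WT replicate 1 (0.0639). Il7r is also the locus of the driver, and an unequal number of driver alleles and an effect of Piezo1 cannot be told apart from these labels.

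**Figure D2:**
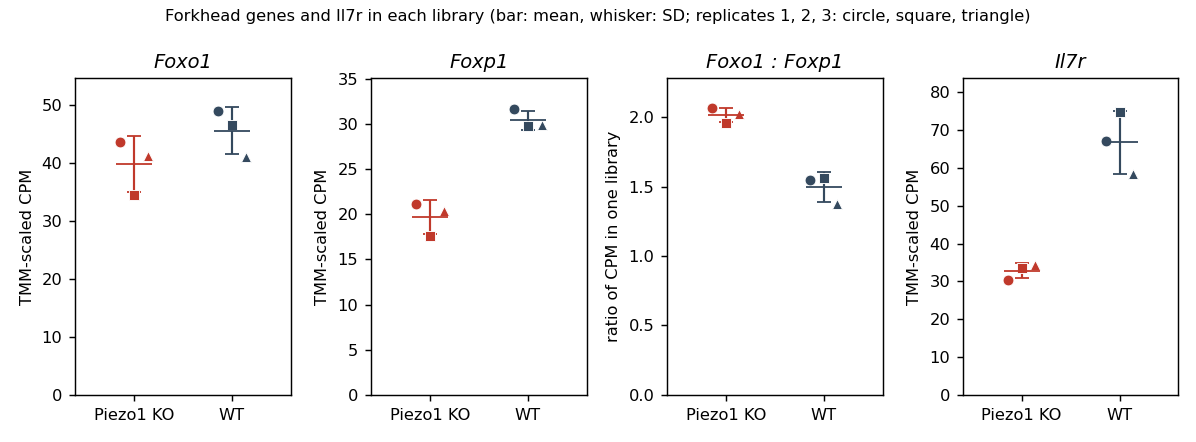
CPM of Foxo1, Foxp1 and Il7r and the ratio of Foxo1 to Foxp1 within each library (vertical axes, from 0) in the 3 Piezo1 KO and 3 WT libraries, with mean and SD. The ratio lay between 1.96 and 2.07 in Piezo1 KO and between 1.37 and 1.57 in WT libraries.

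Among the receptors, S1pr1 and Ccr7 were above WT in every Piezo1 KO library without passing, and S1pr4 overlapped. S1pr1, the exit receptor that KLF2 switches on in T cells, was at 35.0, 34.9 and 35.4 CPM in Piezo1 KO replicates 1, 2 and 3, against 25.9, 30.1 and 22.8 CPM in WT replicates 1, 2 and 3. The Piezo1 KO libraries lay almost at one level, above all of the more scattered WT libraries. The log2 fold change was 0.41 ± 0.12 (SE, adjusted p = 0.181, edgeR; 95% interval 1.10-fold to 1.62-fold), and the adjusted p over 14 alternative fits lay between 0.0549 and 0.544. S1pr1 lies on chromosome 3 from 115710433 to 115715072 (minus strand).

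S1pr4 (chromosome 10, 81497747 to 81500132, minus strand), a sphingosine 1-phosphate receptor found mainly on blood and lymphoid cells, was at 39.0, 33.6 and 32.8 CPM in Piezo1 KO replicates 1, 2 and 3, against 33.8, 43.1 and 39.2 CPM in WT replicates 1, 2 and 3. The groups overlapped, since Piezo1 KO replicate 1 lay above WT replicate 1 and beside WT replicate 3. The log2 fold change was −0.14 ± 0.13 (SE, adjusted p = 0.702, edgeR), with a 95% interval from 0.74-fold to 1.11-fold. It was −0.23 without Piezo1 KO replicate 1 or without WT replicate 1, −0.071 without WT replicate 2 and −0.065 in limma-voom.

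Ccr7, the receptor for CCL19 and CCL21 that guides cells into lymphatics and lymph nodes, was at 51.4, 57.0 and 50.2 CPM in Piezo1 KO replicates 1, 2 and 3, against 37.7, 31.1 and 38.2 CPM in WT replicates 1, 2 and 3. The groups did not overlap, and Piezo1 KO replicate 2 was the highest and WT replicate 2 the lowest of the 6. The means were 52.9 ± 3.59 CPM in Piezo1 KO and 35.7 ± 3.98 CPM in WT (SD, n = 3 each), a log2 fold change of 0.57 ± 0.12 (SE) that missed the threshold (adjusted p = 0.0612, edgeR). DESeq2 (adjusted p = 0.00363; it called 4.19% of all genes) and limma-voom with sample quality weights (0.0275; 3.10% of all genes) called it. With those tools, 3 members passed, namely Pecam1, Ccr7 and Foxp1. Ccr7 lies on chromosome 11 from 99144196 to 99155077 (minus strand).

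Pecam1 encodes CD31, an adhesion molecule with inhibitory signalling motifs that endothelial cells, platelets and many leukocytes carry and that takes part in the passage of leukocytes across endothelium. It was at 71.4, 65.3 and 65.8 CPM in Piezo1 KO replicates 1, 2 and 3, against 40.8, 46.3 and 42.1 CPM in WT replicates 1, 2 and 3. Every Piezo1 KO library was above every WT library. The means were 67.5 ± 3.41 CPM in Piezo1 KO and 43.1 ± 2.85 CPM in WT (SD, n = 3 each), a log2 fold change of 0.65 ± 0.10 (SE, adjusted p = 0.0193, edgeR). The change stayed between 0.60 and 0.69 in 14 alternative fits. The call was lost without WT replicate 1 (adjusted p = 0.124) and without Piezo1 KO replicate 1 (0.0988), 2 (0.124) or 3 (0.0982). Pecam1 lies on chromosome 11 from 106654217 to 106750628 (minus strand).

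Endothelial cells and platelets carry Pecam1 as well, and their markers were read in the same libraries. Of 20 endothelial markers 7 were among the 18057 genes with counts and were analysed. Cdh5, Kdr, Tek and Vwf were not among those 18057 genes, of which the lowest sum over the 6 libraries was 10 counts. Why a gene is absent was not stated in the sources used here. The 7 markers summed to 125 to 150 CPM in Piezo1 KO and 97.0 to 133 CPM in WT libraries. Calcrl alone made up 96.3 to 119 CPM in Piezo1 KO and 74.8 to 109 CPM in WT libraries. Which cells the Calcrl RNA came from was not tested, so the sum is not a measure of endothelial RNA. Esam was at 0.51 to 0.79 CPM in Piezo1 KO and 0.12 to 0.30 CPM in WT libraries, and Nos3 at 0.17 to 0.34 CPM in Piezo1 KO and 0.30 to 0.90 CPM in WT libraries. Of the 5 endothelial markers tested 5 had a positive log2 fold change (median 0.37) and 0 passed in edgeR, DESeq2 or limma-voom, with 1 at an unadjusted p under 0.05. That 1 gene was Esam, with 14, 23 and 12 counts in Piezo1 KO replicates 1, 2 and 3. In WT replicates 1, 2 and 3 Esam had 6, 4 and 3 counts, so it passed the filter on low counts through the Piezo1 KO group alone. Nos3 and Thbd were too low to be tested, and the count of positive signs depends in part on that filter. The 4 platelet markers analysed (Pf4, Ppbp, Itga2b and Gp1ba) summed to 0.30 to 0.64 CPM in Piezo1 KO and 0.30 to 1.28 CPM in WT libraries. In bulk RNA, a change in the share of cells of one type and a change in RNA per cell cannot be told apart, and the part of endothelial RNA in the Pecam1 result was not tested.

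Other immune cells also carry S1pr1 and Ccr7, and among their markers Ighm rose and Tbx21 and Cma1 fell. The 8 T cell markers analysed summed to 129 to 160 CPM in Piezo1 KO and 167 to 210 CPM in WT libraries, mostly Trbc2, and the T cell receptor subunit gene Cd3e was at 0.93 to 1.62 CPM in Piezo1 KO and 2.36 to 3.14 CPM in WT libraries. Another subunit gene, Cd3d, too low to be tested, lay the other way, at 0.43 to 0.69 CPM in Piezo1 KO and 0.15 to 0.24 CPM in WT libraries. Trac, of the same list, was at 0.52 to 0.76 CPM in Piezo1 KO and 0.33 to 0.80 CPM in WT libraries (adjusted p = 0.968, edgeR). The groups overlapped for Trac, Trbc1 and Cd3g. None of the 6 tested passed in edgeR, with 3 at an unadjusted p under 0.05, and DESeq2 and limma-voom called 1 each. The 4 B cell markers summed to 80.5 to 104 CPM in Piezo1 KO and 34.9 to 40.7 CPM in WT libraries, of which Ighm, the IgM heavy chain gene, rose (log2 fold change 1.79 ± 0.19 (SE), adjusted p = 0.00473, edgeR; 0.0594 without WT replicate 1). The defining B cell gene Cd79a was at 0.085 to 0.14 CPM in Piezo1 KO and 0.030 to 0.075 CPM in WT libraries. The B cell gene Cd22 overlapped, at 0.17 to 0.66 CPM in Piezo1 KO and 0.40 to 0.45 CPM in WT libraries. Its log2 fold change was −0.18 (adjusted p = 0.937, edgeR). The 3 NK cell and ILC1 markers summed to 40.2 to 59.8 CPM in Piezo1 KO and 63.9 to 87.3 CPM in WT libraries, mostly Gzma. Tbx21, the defining factor of those cells, fell. It was at 0 in every Piezo1 KO library and at 1.1 to 1.5 CPM in WT libraries (adjusted p = 0.0170, edgeR). Tbx21 had only 21, 44 and 20 counts in WT replicates 1, 2 and 3. It passed the filter on low counts through the WT group alone, so the call rests on few reads. Prf1, the perforin gene and the remaining marker of that list, was at 2.05 to 4.84 CPM in Piezo1 KO and 1.2 to 3.62 CPM in WT libraries (adjusted p = 0.575, edgeR). The 10 macrophage and dendritic cell markers summed to 37.3 to 42.9 CPM in Piezo1 KO and 40.6 to 42.6 CPM in WT libraries, mostly Xcr1, and the macrophage gene Csf1r was at 0 to 0.39 CPM in Piezo1 KO and 1.03 to 1.13 CPM in WT libraries (adjusted p = 0.209, edgeR). Cd68, a lysosomal macrophage gene, lay the other way, at 3.09 to 4.18 CPM in Piezo1 KO and 1.91 to 2.84 CPM in WT libraries (adjusted p = 0.397, edgeR). The 4 granulocyte and mast cell markers summed to 3.93 to 5.25 CPM in Piezo1 KO and 8.30 to 12.6 CPM in WT libraries, of which the mast cell protease gene Cma1 fell (log2 fold change −2.03 ± 0.35, SE; adjusted p = 0.0312, edgeR). Of the ILC2 markers, the IL-25 receptor gene Il17rb rose (0.74 ± 0.10, SE; adjusted p = 0.0136, edgeR) and the costimulator gene Icos fell (−0.61 ± 0.09, SE; adjusted p = 0.0168, edgeR). When either WT replicate 1 or any 1 of the Piezo1 KO libraries was left out, the adjusted p was 0.0788 to 0.0998 for Il17rb, 0.0884 to 0.108 for Icos, 0.0624 to 0.113 for Tbx21 and 0.112 to 0.149 for Cma1, and without WT replicate 3 it was 0.0508 for Cma1. The markers Cd247, Cd79b, Gzma, Lyz2, Cpa3 and Egfl7 had log2 fold changes of −0.68, 0.42, −0.60, −2.11, −0.75 and 0.37 and did not pass (adjusted p = 0.132, 0.175, 0.202, 0.317, 0.375 and 0.487, edgeR). The part of these cells in the results was not tested.

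**Figure D3:**
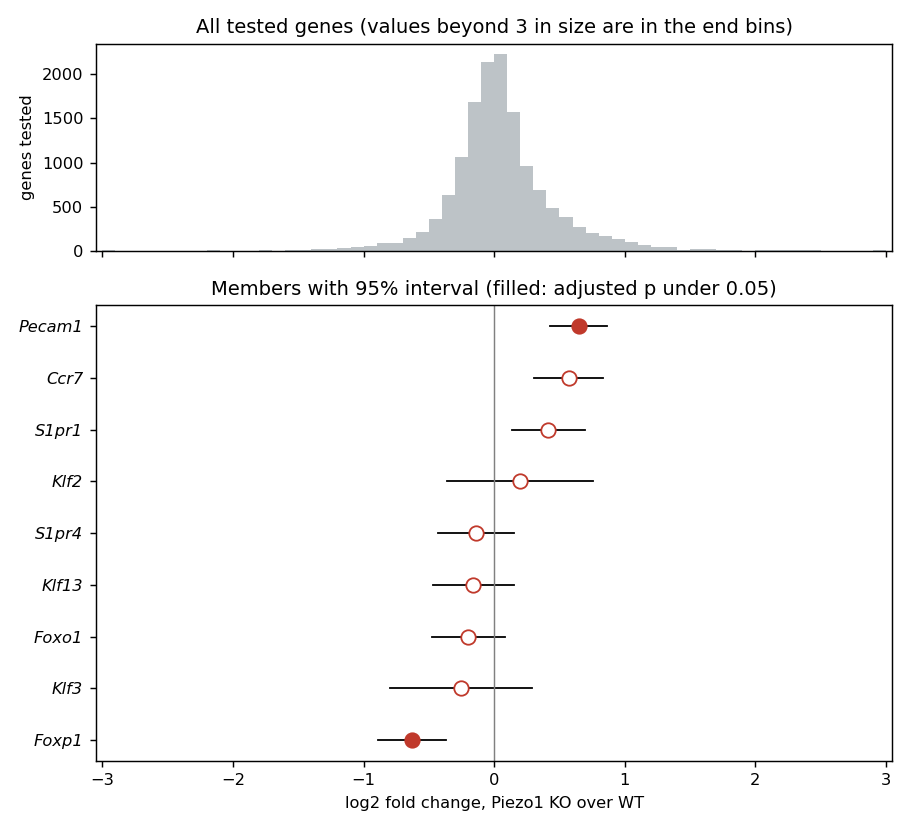
The upper panel counts all 14149 tested genes by log2 fold change of Piezo1 KO over WT, and the lower panel shows the 9 members with their 95% intervals, filled where the adjusted p was under 0.05. Pecam1 at 0.65 and Foxp1 at −0.63 are filled, and the intervals of Ccr7 and S1pr1 also leave out 0.

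To compare the genes with each other, CPM was divided by the length of all annotated exons of a gene, which understates genes with long or many transcripts. On this scale of CPM per kb the order of the means was the same in both genotypes, from Ccr7 through S1pr4, S1pr1, Pecam1, Klf13, Foxo1, Klf2 and Foxp1 to Klf3. Ccr7 was at 26.7 ± 1.82 CPM per kb in Piezo1 KO and 18.0 ± 2.01 CPM per kb in WT (SD, n = 3 each). Klf2 was at 3.16 ± 0.04 CPM per kb in Piezo1 KO and 2.78 ± 0.81 CPM per kb in WT. Klf3, at the low end, was at 0.49 ± 0.08 CPM per kb in Piezo1 KO and 0.58 ± 0.12 CPM per kb in WT, over 11243 bases of annotated exon. In Piezo1 KO only S1pr1 and Pecam1 had ranges that overlapped as neighbours in this order. In WT the neighbours Ccr7 and S1pr4, Pecam1 and Klf13, Klf13 and Foxo1, and Klf2 and Foxp1 overlapped.

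The genes around these members were read from 7 lists, whose medians stand beside a median of 0.018 over all genes tested. Of all genes tested edgeR called 1.51%, DESeq2 4.19% and limma-voom 3.10%, and 13.2% had an unadjusted p under 0.05 in edgeR. Those lists were chosen with earlier results of these data known, so their counts of genes called are not an independent test. Of 10 other KLF family genes tested 0 passed in edgeR, with 5 at an unadjusted p under 0.05 and 1 and 2 called by DESeq2 and limma-voom. All 10 log2 fold changes were negative, with a median of −0.27, also under RLE and upper-quartile scaling; Klf7 or Klf12 turned positive in 5 of the 6 fits with a library left out. Klf5, a KLF activator best known from epithelia, was at 12.2 ± 0.71 CPM in Piezo1 KO and 21.5 ± 4.19 CPM in WT (SD, n = 3 each; log2 fold change −0.82 ± 0.16 (SE), adjusted p = 0.0574, edgeR). Klf10, an early response gene of TGF-beta, had a log2 fold change of −0.32 ± 0.09 (SE, adjusted p = 0.178, edgeR). Klf6, the KLF family gene with the highest CPM here, was at 175, 175 and 168 CPM in Piezo1 KO replicates 1, 2 and 3, against 229, 225 and 194 CPM in WT replicates 1, 2 and 3 (adjusted p = 0.186, edgeR; 0.0449 in limma-voom). Klf4, the relative of Klf2 that shares many of its roles in endothelium, was at 0.17 to 0.51 CPM in Piezo1 KO and 0.60 to 1.95 CPM in WT libraries (adjusted p = 0.274, edgeR).

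The regulators Trib2 and Pik3ip1 of FOXO and PI3K signalling rose. Of the 26 tested genes of the FOXO and PI3K-AKT list 2 rose, 0 fell and 24 did not pass, with a median of 0.08. At an unadjusted p under 0.05 there were 2 higher and 0 lower, and DESeq2 and limma-voom each called 2 higher and 0 lower. Trib2, a pseudokinase that can restrain FOXO3 in human melanoma cells, was at 29.5, 30.9 and 30.3 CPM in Piezo1 KO replicates 1, 2 and 3, against 7.04, 7.86 and 8.02 CPM in WT replicates 1, 2 and 3. The groups were 3.95-fold apart (log2 fold change 1.98 ± 0.12, SE; adjusted p = 0.000333, edgeR), and all 14 alternative fits called it. Pik3ip1, an inhibitor of PI3K that resting T cells express, was at 9.17, 9.88 and 8.46 CPM in Piezo1 KO replicates 1, 2 and 3, against 4.13, 4.18 and 4.27 CPM in WT replicates 1, 2 and 3 (log2 fold change 1.13 ± 0.18 (SE), adjusted p = 0.0236, edgeR). The Pik3ip1 call was lost without WT replicate 1 (0.126) and without Piezo1 KO replicate 1 (0.125), 2 (0.175) or 3 (0.0982).

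Of 15 tested genes linked to KLF2 or FOXO factors in T cells 2 rose, 1 fell and 12 did not pass, with a median of 0.16. At an unadjusted p under 0.05 there were 4 higher and 3 lower. DESeq2 called 3 higher and 2 lower, and limma-voom 2 higher and 2 lower. Il7r was the one that fell. Socs3, a feedback inhibitor of cytokine receptors, was at 263, 273 and 218 CPM in Piezo1 KO replicates 1, 2 and 3, against 143, 125 and 134 CPM in WT replicates 1, 2 and 3. Socs3 rose by 0.91 ± 0.11 on the log2 scale (adjusted p = 0.01002, edgeR). Without Piezo1 KO replicate 1 or 2 or WT replicate 1, the adjusted p of Socs3 was 0.0847, 0.0788 and 0.0703. Gimap4, a GTPase of lymphocytes, was at 156 ± 8.0 CPM in Piezo1 KO and 104 ± 4.27 CPM in WT (SD, n = 3 each; log2 fold change 0.58 ± 0.09 (SE), adjusted p = 0.0204, edgeR). Its adjusted p was 0.0985, 0.151 and 0.109 without Piezo1 KO replicates 1, 2 and 3 and 0.113 without WT replicate 1.

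**Figure D4:**
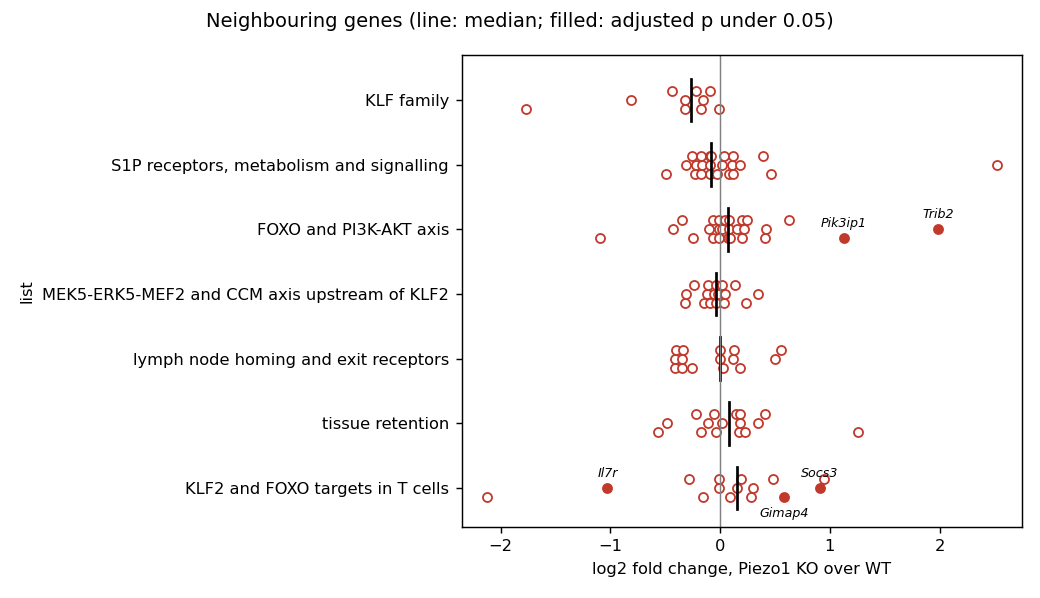
Log2 fold change of Piezo1 KO over WT (horizontal axis) for each tested gene of 7 lists around the members (rows), with the list median as a line and genes with an adjusted p under 0.05 filled. The filled genes are Trib2, Pik3ip1, Socs3 and Gimap4 to the right and Il7r to the left, and all 10 KLF family genes lie left of 0.

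Signalling around the sphingosine 1-phosphate receptors held no gene that passed in edgeR. Of 23 tested genes of that list 0 passed in edgeR, with 5 at an unadjusted p under 0.05 and 1 called by DESeq2 and by limma-voom, and the median was −0.08. S1pr3, a receptor best known from vessels, was at 2.32, 2.45 and 3.16 CPM in Piezo1 KO replicates 1, 2 and 3, against 0.553, 0.119 and 0.825 CPM in WT replicates 1, 2 and 3 (adjusted p = 0.103, edgeR). Cers6, a ceramide synthase, had a log2 fold change of 0.46 ± 0.13 (SE, adjusted p = 0.167, edgeR). Of 17 tested genes of the MEK5, ERK5, MEF2 and CCM pathways that control Klf2 in endothelium 0 passed in edgeR, DESeq2 or limma-voom, with 1 at an unadjusted p under 0.05 and a median of −0.04. Map3k3, a kinase upstream of MEK5, was at 113 ± 8.34 CPM in Piezo1 KO and 141 ± 18.3 CPM in WT (SD, n = 3 each; log2 fold change −0.32 ± 0.12 (SE), adjusted p = 0.283, edgeR), and Hdac7 had 0.34 ± 0.15 (SE, adjusted p = 0.398, edgeR).

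Homing and retention genes did not pass in edgeR either. Of 15 tested homing and exit receptors 0 passed in edgeR, with 4 at an unadjusted p under 0.05 and 2 and 1 called by DESeq2 and limma-voom, and the median was −0.0053. The oxysterol receptor gene Gpr183 was at 67.3 ± 1.55 CPM in Piezo1 KO and 85.7 ± 5.35 CPM in WT (SD, n = 3 each; adjusted p = 0.125, edgeR), and the integrin gene Itgb1 had a log2 fold change of −0.42 ± 0.11 (SE, adjusted p = 0.125, edgeR). Of 16 tested tissue retention genes 0 passed in edgeR, with 3 at an unadjusted p under 0.05 and 2 and 1 called by DESeq2 and limma-voom, and the median was 0.08. Cd69, whose product pulls S1PR1 protein off the cell surface, was at 67.8, 77.4 and 74.1 CPM in Piezo1 KO replicates 1, 2 and 3, against 69.8, 76.2 and 70.5 CPM in WT replicates 1, 2 and 3, and its sign turned with the libraries left out. The ATP-gated channel gene P2rx7 was at 7.13 ± 0.62 CPM in Piezo1 KO and 2.94 ± 1.01 CPM in WT (SD, n = 3 each; log2 fold change 1.26 ± 0.29 (SE), adjusted p = 0.0909, edgeR), and Bhlhe40 had 0.34 ± 0.09 (SE, adjusted p = 0.133, edgeR).

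Among the 8652 tested genes at or above a mean of 3 on the log2 CPM scale, likeness to a member was measured over the 6 libraries as the root mean square difference of log2 CPM after centring each gene. The genes closest to Klf2 were the pseudogene Tmem181b-ps (0.039), whose reads may be shared with its parent gene, the mitochondrial ribosomal protein gene Mrpl54 (0.069) and Hcfc1r1 (0.080). Like Klf2 they were highest in WT replicate 3 and lowest in WT replicate 2, as their choice by likeness to Klf2 fixes. Closest to S1pr1 were Hmgcs1 (0.032), an enzyme of cholesterol synthesis, Slc44a2 (0.035) and Idi1 (0.039), another enzyme of that pathway. Hmgcs1 was at 217 to 232 CPM in Piezo1 KO and 143 to 193 CPM in WT libraries (adjusted p = 0.157, edgeR). Its choice by likeness to S1pr1 fixes that direction. Closest to Foxp1 were Cdkn2c (0.060), an inhibitor of cell cycle kinases, Tmtc4 (0.063) and Gbp7 (0.067), a guanylate-binding protein gene, all lower in every Piezo1 KO library, as their choice by likeness to Foxp1 fixes.

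**Figure D5:**
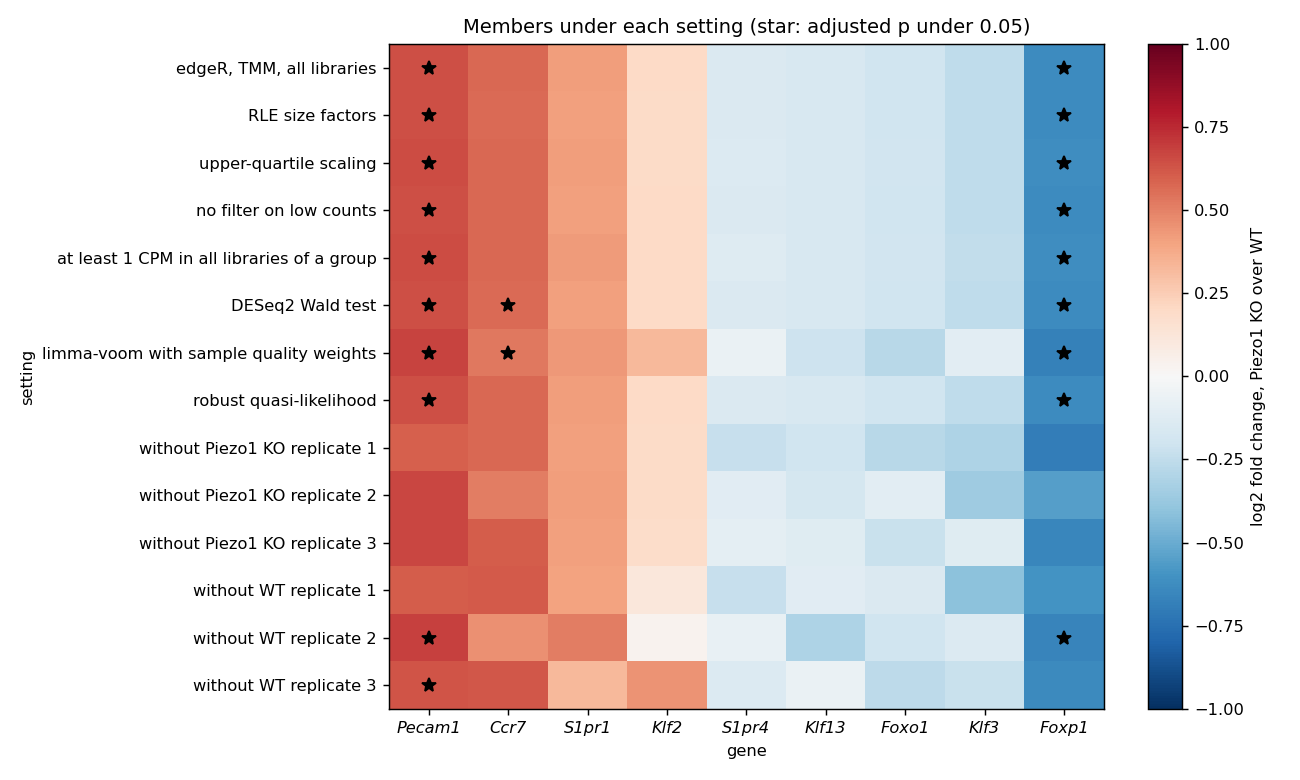
Log2 fold change of Piezo1 KO over WT (colour) for each member (columns) under the edgeR fit with all libraries and 13 of the 14 alternatives (rows; the replicate block, under which 0 of 9 members passed, is not drawn), with a star where the adjusted p was under 0.05. Signs held in every row shown, Pecam1 and Foxp1 lost their stars in most fits with a library left out, and Ccr7 has stars in DESeq2 and limma-voom.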

How the data were processed

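RNA of 6 libraries, 3 Piezo1 KO and 3 WT, was profiled. The authors deposited estimated counts of 18057 genes, unscaled and in part not whole numbers. Per the submitters' processing notes, mm10 was the genome build; aligner, counting tool and annotation were not stated in the sources used here. Libraries are rows, matched by the sample description in the labels, and groups came from the titles.

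Counts were rounded to whole numbers, filtered with filterByExpr, TMM-scaled and tested by quasi-likelihood (glmQLFit, glmQLFTest; edgeR 4.0.16 under R 4.3.3), two-sided, without covariates, adjusted by Benjamini-Hochberg across the 14149 genes tested. Intervals of log2 fold changes are 95% and not adjusted. The fit was tested on counts simulated with the depths and spread of these libraries. It recovered 24% of 50 genes changed 1.5-fold and 48% of 50 genes changed 2-fold. Of its 119 calls 9 were false. A member that did not pass is therefore not shown to be unchanged. Alternatives were RLE and upper-quartile scaling, no filter and a filter of 1 CPM in all libraries of a group, a replicate block, DESeq2 1.42.0, limma-voom with quality weights (limma 3.58.1), robust quasi-likelihood and leaving out each library. Positions and exon lengths are from GENCODE M21 (GRCm38, which is mm10), and promoters from RefSeq.

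The members and lists were chosen with earlier results of these data known. Besides the members and Piezo1, the text names every gene of the pathway and marker lists past the threshold (where fewer than 2 passed, those with the smallest p up to 2 in all), Il7r, Cd69, Klf4 and Klf6, and the 3 genes closest in pattern to Klf2, S1pr1 and Foxp1. A further gene of that rule is not reported here. Other marker genes were named after their values were seen.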

Additional observations from a re-analysis of the deposited data

How the results depend on the processing

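Signs of the 9 members held in all 14 alternatives, and the calls of Pecam1 and Foxp1 held under RLE and upper-quartile scaling, both filters, robust quasi-likelihood, DESeq2 and limma-voom. Genes called numbered 214 (142 higher, 72 lower), against 593 in DESeq2, 439 in limma-voom and 33 to 297 with a library left out. Members called ranged from 0 to 2 with a library left out; where edgeR called 0, 4 members had an unadjusted p under 0.05. With the replicate block, genes called fell to 52 and members called to 0 of 9 (4 at an unadjusted p under 0.05; adjusted p = 0.134 for Pecam1 and 0.168 for Foxp1). Libraries with the same number did not deviate together (correlations −0.0227, −0.183 and −0.00752). So few values cannot settle whether the numbers pair the libraries. The difference in Foxo1 to Foxp1 log2 ratio was 0.43, or 0.41 with a pseudocount of 1 CPM and 0.37 to 0.47 with a library left out. The log2 fold change of Cd69, 0.018, lay between −0.025 (without Piezo1 KO replicate 2) and 0.059 with a library left out, and was −0.0072 without WT replicate 1; the cause was not tested. At 90 to 169 counts a library, Klf2 is among the least precise members.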

Other observations

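Libraries of the same group differed less among Piezo1 KO than among WT. The SD of log2 CPM was lower in Piezo1 KO for 7 of the 9 members, and the SD was larger in WT for 74.1% of the 14149 genes tested (median SD 0.14 in Piezo1 KO and 0.23 in WT). Among the members the widest gap was in Klf2, with an SD of 0.018 in Piezo1 KO and 0.39 in WT. Foxo1 and Foxp1 were the exceptions, with SDs of 0.18 and 0.14 in Piezo1 KO and 0.13 and 0.049 in WT. Klf2 had only 136, 169 and 138 counts in Piezo1 KO replicates 1, 2 and 3. At such counts, so small an SD over 3 libraries cannot be read as tight control. The same caution holds for S1pr1, with an SD of 0.012 in Piezo1 KO at 828, 1011 and 830 counts. The difference in spread was not tested.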
